A study of Mus musculus with 12 samples.

Results

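The 10 genes described here encode lysosomal proteases of microglia: the cysteine cathepsins Ctsb, Ctsc, Ctsh, Ctsk, Ctsl, Ctss and Ctsz, the aspartic protease Ctsd, the serine carboxypeptidase Ctsa, and Lgmn, which encodes legumain, an asparaginyl endopeptidase. They were taken by symbol from a table of 46262 genes, each symbol matched 1 gene identifier, and all 10 were among the 12419 genes tested. RNA was measured in 12 libraries of primary microglia from wild-type (WT) mice, called neonatal in the name of the deposited table, grown in mixed glial cultures of cerebellum or forebrain and kept for 24 hours with IL-34 at 100 ng/ml or CSF-1 at 20 ng/ml. Each region had 3 libraries with IL-34 and 3 with CSF-1, which gives 4 groups, and the series describes the replicates as independent mixed glial cultures. Both cytokines act through the CSF-1 receptor. No group was without a ligand, the ligands were given at different doses, and no age in days was found in the labels, so the comparisons are between these cultures and not with microglia in the brain.

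Cathepsins are made as inactive precursors, sorted to endosomes and lysosomes mostly by mannose 6-phosphate receptors, and activated there by cleavage at acid pH. Ctsd and Ctsb are broad endopeptidases of the lysosome, and Ctsl is another. Ctss stays active near neutral pH and trims the invariant chain of MHC class II in antigen-presenting cells, Ctsc activates granule serine proteases, and Ctsk is best known as the collagenase of osteoclasts. Legumain cleaves after asparagine and processes other cathepsins, and cystatins block most of these enzymes. The values here are transcript levels, and neither protein nor enzyme activity was measured.

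The values are TPM, a unit that corrects for transcript length and has the same total in each library, summed over the transcripts of a gene. Levels can therefore be compared between genes with longer transcripts, while read depth is not known. Few short transcripts were measured. The 1st percentile of length among transcripts at 5 TPM or more was 491 to 669 nt per library. Ranks and shares of all TPM therefore hold mainly among genes with longer transcripts. In each library 11740 to 11904 genes reached 1 TPM. None of the 12 microglia markers was at 0 in all libraries of a group, and their summed levels were 7850 to 10026 TPM per library. Tyrobp varied widely between libraries (SE 3.31 for its log2 fold change between ligands in each region), so its part in these sums is uncertain. Neuron markers summed to at most 2.28 TPM. The 3 cerebellum IL-34 libraries held more short transcripts: those under 600 nt took 2.58, 3.31 and 0.947% of TPM in them, against 0.0269 to 0.555% in the other 9 libraries. In a bulk library, more cells of a type and more RNA per cell cannot be told apart.

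The regulatory windows at the starts of 4 of the genes are printed here because the expression results turn on these genes: Ctsk and Ctsc differed most between regions, Ctss had the smallest p-value between ligands, and Ctsd was the most abundant. Each window runs from 250 bases before to 50 after the annotated start, 5′ to 3′ on the gene's strand, from RefSeq on GRCm38.p6. Capitals mark the motifs searched on both strands, CACGTG (the E-box core), TCACGTG (a longer form bound by TFEB and its relatives, which overlaps it) and GAGGAAGT (a core of PU.1 sites). TGAGTCA, an AP-1 site, was also searched.
Ctsk, chr3:95498960-95499259, plus strand: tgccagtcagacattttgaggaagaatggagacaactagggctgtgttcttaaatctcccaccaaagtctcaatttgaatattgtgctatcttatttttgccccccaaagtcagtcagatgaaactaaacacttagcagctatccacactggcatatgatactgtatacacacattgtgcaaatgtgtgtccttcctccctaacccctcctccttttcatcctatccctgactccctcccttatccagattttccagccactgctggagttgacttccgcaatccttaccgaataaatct
Ctss, chr3:95526536-95526835, plus strand: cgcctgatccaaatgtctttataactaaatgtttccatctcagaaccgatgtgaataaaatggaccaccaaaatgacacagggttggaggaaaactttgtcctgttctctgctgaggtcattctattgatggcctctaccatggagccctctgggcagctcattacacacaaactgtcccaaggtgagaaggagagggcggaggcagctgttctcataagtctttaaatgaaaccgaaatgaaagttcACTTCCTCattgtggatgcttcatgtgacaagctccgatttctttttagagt
Ctsc, chr7:88277835-88278134, plus strand: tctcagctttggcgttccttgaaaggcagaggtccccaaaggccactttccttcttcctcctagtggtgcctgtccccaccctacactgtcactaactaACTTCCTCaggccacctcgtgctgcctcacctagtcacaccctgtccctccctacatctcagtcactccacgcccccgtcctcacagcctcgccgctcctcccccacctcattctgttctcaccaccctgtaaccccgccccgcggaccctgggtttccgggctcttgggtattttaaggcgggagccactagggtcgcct
Ctsd, chr7:142387778-142388077, minus strand: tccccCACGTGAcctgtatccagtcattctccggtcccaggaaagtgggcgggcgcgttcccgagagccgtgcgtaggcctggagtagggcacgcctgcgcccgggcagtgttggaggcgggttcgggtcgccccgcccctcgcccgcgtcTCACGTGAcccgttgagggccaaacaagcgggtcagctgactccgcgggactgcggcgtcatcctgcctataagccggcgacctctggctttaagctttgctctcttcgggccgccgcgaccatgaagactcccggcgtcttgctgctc

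The Ctsd window held 2 copies of CACGTG, starting 245 and 98 bases before the start, and had 33 CpG dinucleotides, against a median of 7 over all 32851 windows. Ctsc held GAGGAAGT 151 bases before the start and Ctss 2 bases before it, both on the opposite strand to the one printed. The Ctsk window held no match to any of the letters searched. The table had 10 windows for 8 of the members, since Ctsa and Lgmn have 2 starts each. Of the 10 windows, 4 held CACGTG (1 each of Ctsa, Ctsd, Ctsl and Lgmn), against 7.15% of all windows. TCACGTG was in 3, those of Ctsa, Ctsd and Lgmn, against 3.77%. GAGGAAGT was in 2, against 3.20%, and TGAGTCA in 0, against 5.20%. A match describes the letters in a window and is no evidence of binding.

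Together the 10 genes made up 3.08 to 3.42% of all TPM as group means, and 3.02 to 3.48% over single libraries. Their sum in cerebellum was 33928 ± 793 TPM with IL-34 and 30762 ± 535 TPM with CSF-1, and in forebrain 34151 ± 636 TPM with IL-34 and 31429 ± 635 TPM with CSF-1 (SD, n = 3 each, as for all means below). Ctsd, with a mean of 13912 TPM over the 12 libraries, was the 6th most abundant of all genes as measured, and Ctsb was the 9th. Ctss ranked 21, Ctsz 35, Lgmn 40, Ctsa 51, Ctsl 64 and Ctsc 91. Ctsh ranked 521 at 255 TPM, and Ctsk ranked 8422 at 8.06 TPM.

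The first 3 places, Ctsd, Ctsb and Ctss, were the same in all groups, and so were the last 3, Ctsc, Ctsh and Ctsk. Each of these genes was separated from its neighbour by every library, except that Ctsc and Ctsl overlapped in forebrain with CSF-1. The middle of the order was less distinct. Ctsz and Lgmn, and Lgmn and Ctsa, overlapped in cerebellum with IL-34, Ctsl and Ctsa overlapped in forebrain with IL-34, and Lgmn and Ctsz overlapped in forebrain with CSF-1. In cerebellum with CSF-1 no neighbours overlapped.

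**Figure D1:**
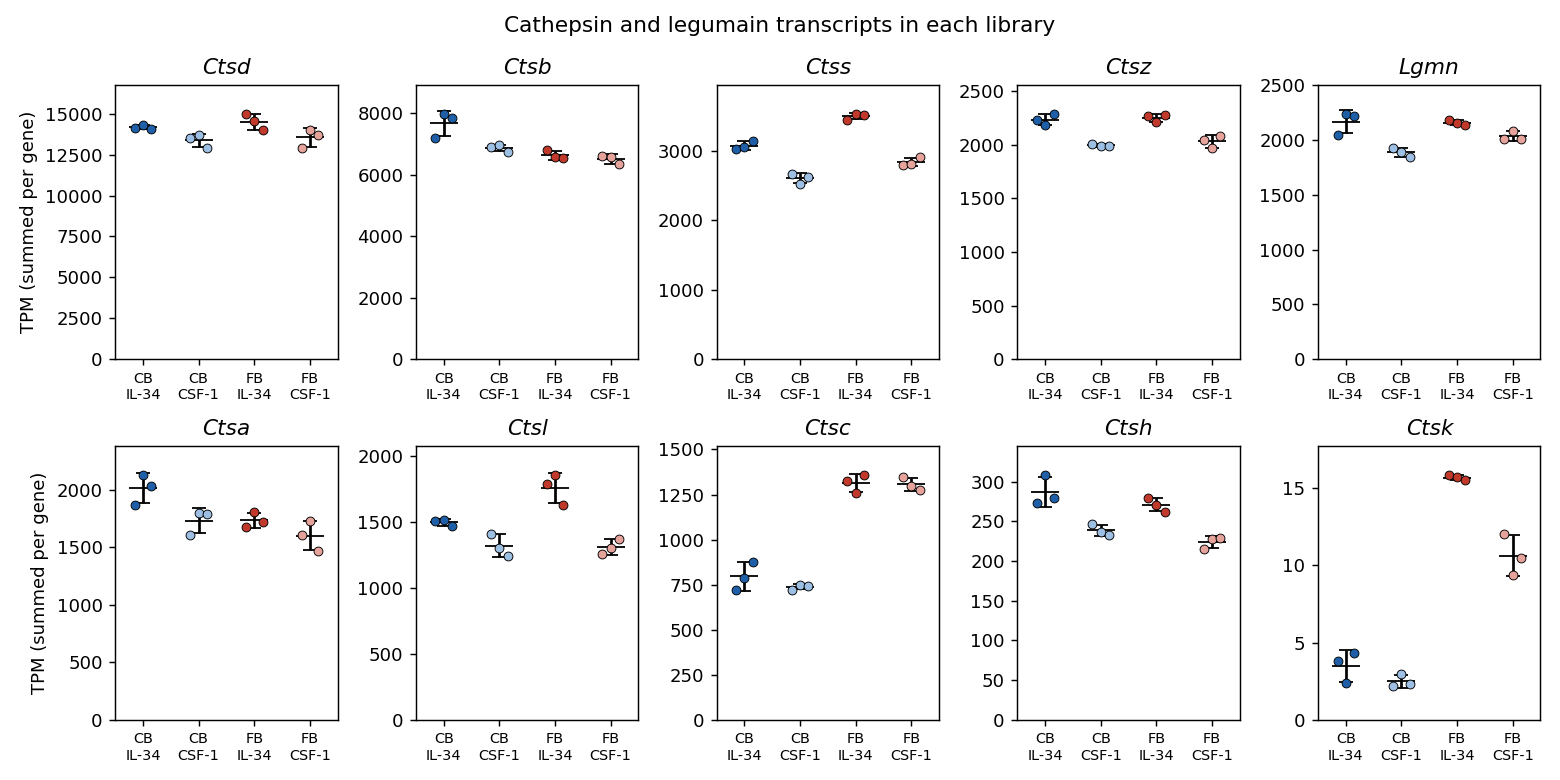
TPM of each gene in every library (points), with the group mean and SD (bars, n = 3 each), from a zero baseline; CB is cerebellum and FB is forebrain. Ctsk and Ctsc stand lower in all 6 cerebellar libraries, and the IL-34 points of Ctss and Ctsh lie above the CSF-1 points within each region.

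Between regions, Ctsk and Ctsc transcripts were lower in cerebellar than in forebrain cultures with either ligand, while most other members differed little. Ctsk was at 3.80, 2.36 and 4.29 TPM in cerebellum with IL-34, against 15.8, 15.7 and 15.5 TPM in forebrain with IL-34. With CSF-1 it was at 2.17, 2.95 and 2.32 TPM in cerebellum, against 12.01, 9.38 and 10.5 TPM in forebrain. The highest cerebellar library lay below the lowest forebrain library. The mean was 4.50-fold lower with IL-34 and 4.28-fold lower with CSF-1. The difference in log2(TPM + 1), smaller than the true log2 fold change for so low a gene, was -1.92 with IL-34 (SE 0.16, limma adjusted p = 3.83e-05) and -1.74 with CSF-1 (SE 0.16, limma adjusted p = 0.000113).

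Ctsc, which encodes dipeptidyl peptidase 1, was at 720, 788 and 878 TPM in cerebellum with IL-34, against 1324, 1258 and 1358 TPM in forebrain with IL-34. With CSF-1 it was at 721, 746 and 745 TPM in cerebellum, against 1345, 1298 and 1275 TPM in forebrain. The regions did not overlap with either ligand, and the ligand groups overlapped within both regions. The mean was 1.65-fold lower in cerebellum with IL-34 (log2 fold change -0.73, SE 0.06, limma adjusted p = 4.88e-05) and 1.77-fold lower with CSF-1 (-0.82, SE 0.06, limma adjusted p = 3.25e-05). The calls for Ctsk and Ctsc held under every alternative and without any 1 library.

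Lower values in cerebellum also held for some markers of other cells. Of 5 border macrophage markers 3 were tested. Mrc1 was lower in cerebellum with both ligands (-0.45 with IL-34 and -0.34 with CSF-1), and Siglec1 with IL-34 (-1.13). The third, Pf4, was at 131, 109 and 77.9 TPM in cerebellum, against 0, 6.90 and 45.02 TPM in forebrain with IL-34, without overlap, and did not pass (3.88, limma adjusted p = 0.190). With CSF-1 the log2 fold change of Pf4 was 0.54 and the regions overlapped. Pf4 ran from 0 to 45.02 TPM within the forebrain IL-34 group, so its level and its part in the list sum are uncertain. Lyve1 was at 0.748 TPM or lower in every library, and Cd163 at 0.673 TPM or lower. The summed list was at 144 to 204 TPM (IL-34) and 98.8 to 177 TPM (CSF-1) in cerebellum, and at 127 to 161 TPM (IL-34) and 139 to 186 TPM (CSF-1) in forebrain. Of 6 astrocyte markers tested of 8, Aldoc, Gfap and Gja1 were lower in cerebellum with both ligands, and the list summed to 14.5 to 15.7 TPM in cerebellum with IL-34, 17.1 to 19.8 with CSF-1, and 28.9 to 31.7 and 29.0 to 31.7 in forebrain with IL-34 and with CSF-1. Of 4 mesenchymal and endothelial markers tested of 9, Acta2 was lower (-1.54 with IL-34 and -1.20 with CSF-1), and the list summed to 6.44 to 7.53 TPM in cerebellum with IL-34, 7.91 to 8.40 with CSF-1, and 12.3 to 14.6 and 11.5 to 17.2 in forebrain. Cldn5 was listed at 0 in all groups and Lum at 0 in cerebellum. Of the oligodendrocyte markers, Mbp was higher and Olig1 lower in cerebellum with both ligands. Of the 12 microglia markers, Tmem119 was higher in cerebellum with both ligands and Ptprc lower with IL-34. The part of these cells in the regional values was not tested.

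The other regional differences were small. With IL-34, Ctss was at 3026, 3053 and 3146 TPM in cerebellum, against 3451, 3528 and 3519 TPM in forebrain, without overlap (-0.19, SE 0.04, limma adjusted p = 0.00865). Ctsl was at 1507, 1513 and 1464 TPM in cerebellum, against 1782, 1853 and 1627 TPM in forebrain (-0.23, SE 0.06, limma adjusted p = 0.0296). Ctsb was higher, at 7197, 7965 and 7846 TPM in cerebellum, against 6798, 6560 and 6545 TPM in forebrain (0.21, SE 0.05, limma adjusted p = 0.0132). A covariate was then added for how short the transcripts of a library were, its length floor, which is the 1st percentile of length among its transcripts at 5 TPM or more. In that fit Ctss (-0.13, adjusted p = 0.349), Ctsl (-0.13, adjusted p = 0.598) and Ctsb (0.23, adjusted p = 0.199) did not pass. Of all genes 54 were called higher and 72 lower in it, against 654 and 1021 without the covariate. The floor was 503, 491 and 580 nt in the cerebellum IL-34 libraries, against 592 to 669 nt in the others. The covariate can therefore hardly be separated from that group. A call lost with it, here or below, does not decide whether the difference depends on length. After removal of length and GC trends from transcripts of 1000 nt or more, Ctss was at -0.02 (adjusted p = 0.553) and Ctsl at -0.06 (adjusted p = 0.437). In all, these calls were lost under 6 of 12 alternatives for Ctsl and under 3 each for Ctsb and Ctss. None of these genes passed with no filter on low values, and Ctsb did not pass with only the groups compared in the fit. Without cerebellum IL-34 replicate 2, Ctsb was at 0.18 (adjusted p = 0.0592). Ctsl did not pass without any 1 of cerebellum IL-34 replicates 1, 2 and 3 or forebrain IL-34 replicates 1 and 2 (-0.19 to -0.24, adjusted p = 0.0658 to 0.105).

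With IL-34, 5 members were called between regions, where 13.5% of all genes were. Of these, 4 were lower and 1 higher in cerebellum, against 8.22 and 5.27% of all genes. With CSF-1, 2 were called, both lower, where 6.71% of all genes were called, 3.42% lower and 3.29% higher. Values did not overlap for 4 members lower and 2 higher with IL-34, against 18.9 and 14.1% of all genes, and for 4 lower and 2 higher with CSF-1, against 12.2 and 17.2%. The median over the members was -0.02 with each ligand, and over all genes -0.02 with IL-34 and 0.03 with CSF-1. For Ctsd, Ctsz and Ctsh no regional difference passed, with 95% intervals of -0.13 to 0.07, -0.09 to 0.07 and -0.04 to 0.20 with IL-34. Ctsa (0.21, interval 0.06 to 0.37, limma adjusted p = 0.0711) also did not pass, nor did Lgmn (0.00, interval -0.09 to 0.10). Ctsk and Ctss are neighbours on chromosome 3, 17424 nt apart on the same strand, and their regional differences were unlike in size. The gene on the other side of Ctsk, Arnt, ends 2016 nt from it.

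**Figure D2:**
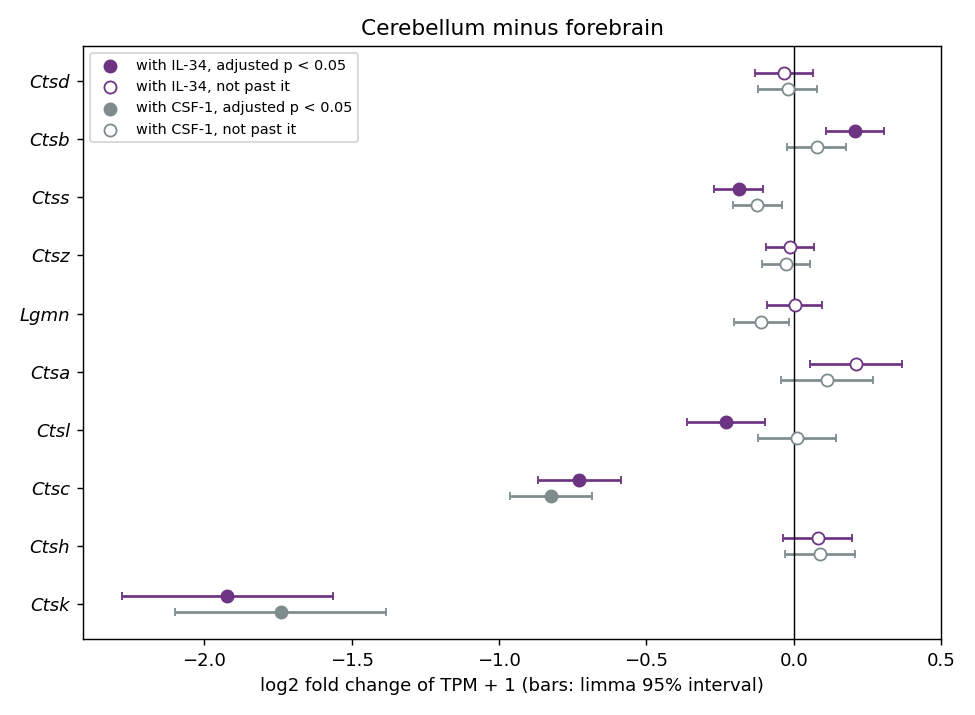
Log2 fold change of TPM + 1, cerebellum minus forebrain, for each gene with IL-34 (purple) and with CSF-1 (grey); bars are 95% intervals from limma and filled points passed an adjusted p of 0.05. Ctsk and Ctsc lie far left of 0 with both ligands, and the others lie between -0.23 and 0.21.

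Between ligands, 7 of the 10 members were higher with IL-34 as the mean of both regions, by small amounts, and Ctsb, Ctsd and Ctsc did not pass there. All 10 had a positive log2 fold change in each region, with a median of 0.19 in cerebellum and 0.13 in forebrain, where 32.0 and 38.7% of all genes were positive and the median of all genes was -0.10 and -0.04. In cerebellum 5 of the 10 were called, all higher, where 12.8% of all genes were called, 3% higher and 9.82% lower. In forebrain 3 were called, all higher, where 1.2% of all genes were called, 0.427% higher and 0.773% lower. As the mean of both regions 7 were called, all higher, where 13.4% of all genes were called, 2.73% higher and 10.7% lower, and the member median was 0.16. In cerebellum 8 members were higher without overlap and 0 lower, against 8.21 and 27.9% of all genes, and in forebrain 6 were higher and 0 lower, against 5.9 and 12.6%. The signs were the same under median-of-ratios scaling, but quantile normalization put Ctsb at -0.11 and Ctsc at -0.02 in forebrain. It put Ctsd at 0.00 in both regions. That method gives a gene of equal rank in every library the same value, so the 0.00 of Ctsd holds no direction. Ctsc in forebrain was also below 0 without forebrain CSF-1 replicate 3 (-0.01) or forebrain IL-34 replicate 3 (-0.02). With the length floor as a covariate 1 member, Ctss, was called in cerebellum, where 19 of all genes were called higher and 18 lower. In forebrain 4 members were called in that fit, where 80 of all genes were called higher and 175 lower. With only the groups compared in the fit, 1 member was called in cerebellum, where 189 of all genes were called higher and 589 lower. In forebrain 0 members and 0 of all genes were called in that fit. Quantile normalization left 1 member called in cerebellum, where 451 of all genes were called higher and 724 lower.

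Ctss differed most clearly between ligands. It was at 3026, 3053 and 3146 TPM with IL-34 in cerebellum, against 2671, 2528 and 2621 TPM with CSF-1 in cerebellum. In forebrain it was at 3451, 3528 and 3519 TPM with IL-34, against 2791, 2818 and 2910 TPM with CSF-1. No IL-34 library overlapped a CSF-1 library of either region. The log2 fold change was 0.24 in cerebellum (SE 0.04, limma adjusted p = 0.00523), 0.30 in forebrain (SE 0.04, limma adjusted p = 0.00623) and 0.27 for the mean (SE 0.03, limma adjusted p = 0.000223). Both regional calls held without any 1 library, but the cerebellar one was lost under quantile normalization (0.14, adjusted p = 0.0761). The forebrain one was lost with only the groups compared in the fit (0.30, adjusted p = 0.0997), where 0 of all genes were called.

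Ctsl was higher with IL-34 in forebrain, at 1782, 1853 and 1627 TPM, against 1252, 1302 and 1368 TPM with CSF-1 (0.42, SE 0.06, limma adjusted p = 0.00927). In cerebellum it was at 1507, 1513 and 1464 TPM with IL-34, against 1410, 1302 and 1242 TPM with CSF-1, also without overlap, and did not pass (0.18, SE 0.06, limma adjusted p = 0.0680). The difference between these 2 effects did not pass either (-0.24, interval -0.43 to -0.05, limma adjusted p = 0.328). The forebrain call was lost without forebrain IL-34 replicate 2 (0.38, adjusted p = 0.0551). It was also lost with only the groups compared in the fit (adjusted p = 0.101), where 0 of all genes were called. The call for the mean of both regions (0.30, SE 0.04, limma adjusted p = 0.00166) was not lost without any 1 library.

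Ctsh, an aminopeptidase, was at 274, 308 and 279.5 TPM with IL-34 in cerebellum, against 246, 237 and 233 TPM with CSF-1 in cerebellum (0.26, SE 0.05, limma adjusted p = 0.0136). In forebrain it was at 279.6, 271 and 262 TPM with IL-34, against 216, 228 and 229 TPM with CSF-1 (0.27, SE 0.05, limma adjusted p = 0.0368). The ligands did not overlap in either region. The mean of both regions was 0.27 (SE 0.04, limma adjusted p = 0.00166). The forebrain call was lost on leaving out any 1 of all 3 cerebellum CSF-1, all 3 forebrain IL-34 or all 3 forebrain CSF-1 libraries (0.24 to 0.29, adjusted p = 0.0526 to 0.153), and the cerebellar call without cerebellum IL-34 replicate 2 (0.21, adjusted p = 0.0584). Among the alternatives, the cerebellar call was lost with only the groups compared (adjusted p = 0.0501) and with the length floor (0.28, adjusted p = 0.212). The forebrain call was lost with no filter, the replicate block, only the groups compared or no variance trend (adjusted p = 0.0654 to 0.130). With only the groups compared, 0 of all genes were called in forebrain.

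Ctsz, a carboxypeptidase also called cathepsin X, was at 2233, 2188 and 2286 TPM with IL-34 in cerebellum, against 2012, 1990 and 1988 TPM with CSF-1 in cerebellum (0.16, SE 0.04, limma adjusted p = 0.0198). In forebrain it was at 2269, 2212 and 2281 TPM with IL-34, against 2042, 1972 and 2085 TPM with CSF-1, again without overlap (0.15, SE 0.04, limma adjusted p = 0.0871). Lgmn was at 2048, 2236 and 2218 TPM with IL-34 in cerebellum, against 1928, 1893 and 1841 TPM with CSF-1 in cerebellum (0.20, SE 0.04, limma adjusted p = 0.0164). In forebrain its difference was 0.09 (interval -0.01 to 0.18), which did not pass. As the mean of both regions, Ctsz (0.16, limma adjusted p = 0.00416) and Lgmn (0.14, limma adjusted p = 0.0127) were higher with IL-34, and these calls held under every alternative. The cerebellar call of Lgmn was lost without cerebellum IL-34 replicate 2 (0.18, adjusted p = 0.0755). That of Ctsz was lost without the same library or any 1 of the 3 cerebellum CSF-1 libraries (0.16 to 0.18, adjusted p = 0.0516 to 0.0625). With no filter, with quantile normalization, with only the groups compared and with the length floor, neither cerebellar call passed (Ctsz at 0.10 to 0.22, adjusted p = 0.0646 to 0.141, and Lgmn at 0.15 to 0.23, adjusted p = 0.0596 to 0.183), nor did Ctsz without the variance trend (adjusted p = 0.0645).

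Ctsb was at 7197, 7965 and 7846 TPM with IL-34 in cerebellum, against 6903, 6956 and 6753 TPM with CSF-1 in cerebellum (0.16, SE 0.05, limma adjusted p = 0.0454). This call was lost on leaving out 10 of the 12 libraries, all but cerebellum IL-34 replicate 1 and forebrain IL-34 replicate 1 (0.13 to 0.17, adjusted p = 0.0509 to 0.156), and under 6 of 12 alternatives (adjusted p = 0.0631 to 0.328). In forebrain its difference was 0.03 (interval -0.07 to 0.13). The most abundant member, Ctsd, was at 14147, 14330 and 14096 TPM with IL-34 in cerebellum, against 13498, 13688 and 12937 TPM with CSF-1 in cerebellum, which did not overlap and did not pass (0.09, interval -0.01 to 0.19, limma adjusted p = 0.221). In forebrain it was at 14977, 14549 and 14023 TPM with IL-34, against 12931, 14044 and 13723 TPM with CSF-1 (0.10, interval 0.00 to 0.20, limma adjusted p = 0.359).

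Ctsa, which also protects the lysosomal enzymes encoded by Neu1 and Glb1, was at 1869, 2126 and 2035 TPM with IL-34 in cerebellum, against 1604, 1799 and 1787 TPM with CSF-1 in cerebellum (0.22, SE 0.07, limma adjusted p = 0.0667). In forebrain it was at 1676, 1803 and 1718 TPM with IL-34, against 1602, 1726 and 1469 TPM with CSF-1, and these overlapped. Its mean difference was just past the threshold (0.17, SE 0.05, limma adjusted p = 0.0498) and was lost without any 1 of 9 libraries, all but cerebellum IL-34 replicate 1, forebrain IL-34 replicate 1 and forebrain CSF-1 replicate 2 (0.14 to 0.18, adjusted p = 0.0624 to 0.119). Ctsk had the largest mean difference between ligands among the members (0.44, SE 0.12, limma adjusted p = 0.0309), with values that did not overlap in forebrain and overlapped in cerebellum. Its call was lost without any 1 of 8 libraries, namely cerebellum IL-34 replicates 1 and 3, cerebellum CSF-1 replicates 1 and 3, forebrain IL-34 replicates 2 and 3 and forebrain CSF-1 replicates 2 and 3 (0.37 to 0.44, adjusted p = 0.0523 to 0.0717). Among the alternatives, Ctsa was lost with a pseudocount of 5, no filter, quantile normalization, no variance trend or the length floor, and Ctsk with no filter, the replicate block or the length floor. Ctsc did not pass in either region (0.10, interval -0.04 to 0.24, in cerebellum and 0.01, interval -0.13 to 0.15, in forebrain).

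The difference of the ligand effects between regions was called for 0 of the 10 members by limma, and 1, Ctsl, had an unadjusted p under 0.05. Of all genes 0.145% were called, 0.121% higher and 0.0242% lower. The member count was also 0 under every alternative. In the comparison of ligands in cerebellum, Cx3cr1 (-0.46) and Itgam (-0.44) were lower with IL-34 among the 12 microglia markers, Siglec1 was lower among the border macrophage markers (-0.73), and Cspg4 among the oligodendrocyte markers (-0.61, and -0.51 as the mean of both regions). Pf4 was at 2.78 and did not pass. Of the other microglia markers, Tyrobp (4.24, SE 3.31) and Aif1 (0.28) were higher with IL-34 without overlap. Csf1r (-0.13) and Fcrls (-0.24) were lower without overlap, and none of these passed. The microglia list summed to 8975 to 10026 TPM in cerebellum with IL-34 and 8085 to 9040 TPM with CSF-1. The part of these markers in the protease values was not tested.

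**Figure D3:**
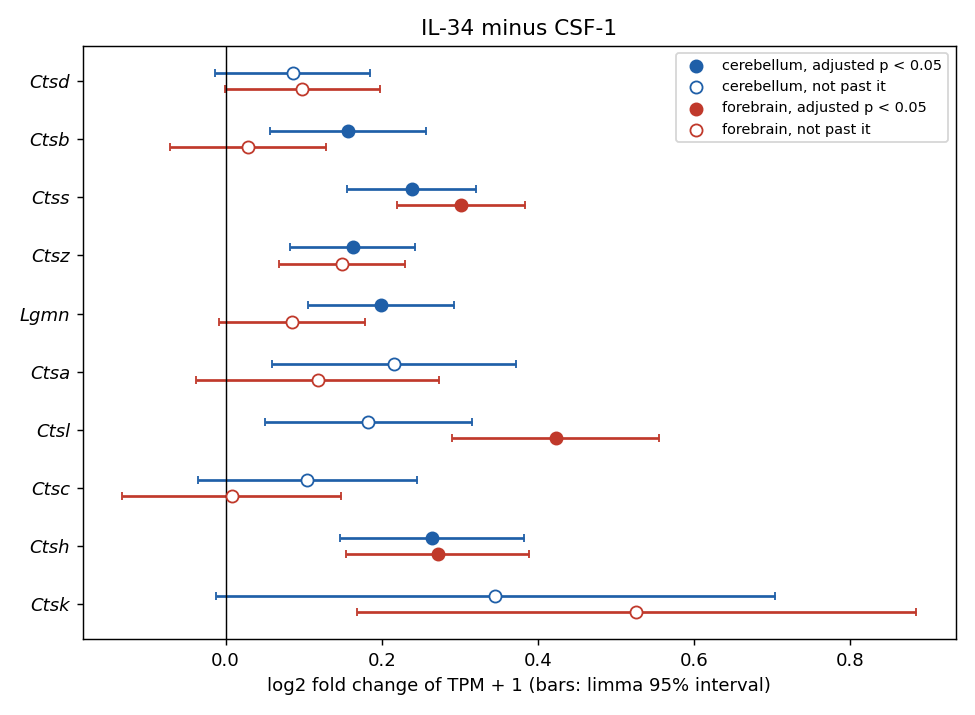
Log2 fold change of TPM + 1, IL-34 minus CSF-1, for each gene in cerebellum (blue) and in forebrain (red); bars are 95% intervals from limma and filled points passed an adjusted p of 0.05. Every point lies right of 0, and Ctss and Ctsh are filled in both regions. Under quantile normalization Ctsb was at -0.11 and Ctsc at -0.02 in forebrain. Ctsd was at 0.00 in both regions there, a value that method gives any gene of equal rank in every library. Ctsc in forebrain was also below 0 without forebrain CSF-1 or IL-34 replicate 3.

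The transcripts of each gene were then compared. Ctsb, Ctsk, Ctsl and Ctsz had 1 transcript each in the table, while Ctsa had 17, of which 12 were above 0. Ctsa-202, with 77.4 to 84.3% of the gene's TPM, was at 1556 TPM with IL-34 in cerebellum, against 1438 TPM with CSF-1. The gene's ligand difference in cerebellum was not that of Ctsa-202 alone. Ctsa-209, of 522 nt, was at 0 to 215 TPM with IL-34 there and 0 with CSF-1. The retained-intron Ctsa-206 was at 125 against 67.7 TPM, while Ctsa-210 was at 47.0 against 68.3 TPM. In forebrain Ctsa-202 was at 1461 TPM with IL-34, against 1318 TPM with CSF-1. The 2 main transcripts of Ctsc were lower in cerebellum alike. Ctsc-201, with 88.8 to 89.9% of the gene's TPM, was at -0.71 with IL-34 (limma adjusted p = 0.000382) and -0.82 with CSF-1 (limma adjusted p = 0.000607). Ctsc-203 was at -0.96 (limma adjusted p = 0.000220) and -0.93 (limma adjusted p = 0.000787). With the length floor as a covariate, Ctsc-201 was at -0.63 with IL-34 and did not pass (adjusted p = 0.0689).

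The total of Ctsd did not pass in any comparison, but its transcripts differed. Ctsd-201, of 1922 nt, made up 21.7% of Ctsd TPM in cerebellum with IL-34 (15.03 to 26.3% over libraries), against 10.98% in cerebellum with CSF-1. In forebrain its share was 6.06% with IL-34 and 8.54% with CSF-1. The rest was nearly all Ctsd-202, of 2127 nt. With IL-34, Ctsd-201 was higher in cerebellum than in forebrain (1.83, SE 0.39, limma adjusted p = 0.0280) and Ctsd-202 was lower (-0.30, SE 0.06, limma adjusted p = 0.0288). With the length floor as a covariate they were at 0.28 (adjusted p = 0.803) and -0.07 (adjusted p = 0.801). Without cerebellum IL-34 replicate 1 or 2, or forebrain IL-34 replicate 1 or 2, neither passed (Ctsd-201 at 1.52 to 1.94, adjusted p = 0.0675 to 0.110, and Ctsd-202 at -0.26 to -0.30, adjusted p = 0.0813 to 0.114). Ctsd-201 also did not pass without forebrain IL-34 replicate 3 (2.03, adjusted p = 0.0515).

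Ctsh was split between Ctsh-201, which is protein coding, and the shorter Ctsh-202, annotated as a target of nonsense-mediated decay. Ctsh-201 had 42.6% of the gene's TPM in cerebellum with IL-34, against 57.0% in cerebellum with CSF-1, and 59.5% in forebrain with IL-34, against 59.8% with CSF-1. In cerebellum Ctsh-202 was higher with IL-34 (0.52, SE 0.09, limma adjusted p = 0.0219), at 0.34 with the length floor as a covariate (adjusted p = 0.461), while Ctsh-201 was at -0.17 (limma adjusted p = 0.493). Lgmn-202 was also higher with IL-34 in cerebellum (0.31, limma adjusted p = 0.0170, and 0.28 with adjusted p = 0.350 with the covariate), and so was Ctss-202 (0.29, limma adjusted p = 0.0286, and 0.19 with adjusted p = 0.515 with the covariate). Of 35 member transcripts tested, 4 were called between ligands in cerebellum and 0 in forebrain, against 2.67 and 0.0366% of all transcripts. Between regions 7 were called with IL-34 and 3 with CSF-1, against 6.1 and 0.803%. Ctsh-202 did not pass without cerebellum CSF-1 replicate 1 or 2 or cerebellum IL-34 replicate 1 or 2 (0.47 to 0.50, adjusted p = 0.0742 to 0.0946), nor Lgmn-202 without cerebellum CSF-1 replicate 2 or 3 or cerebellum IL-34 replicate 2 (0.29 to 0.31, adjusted p = 0.0537 to 0.0779). Ctss-202 did not pass without cerebellum CSF-1 replicate 1 or 3, cerebellum IL-34 replicate 1 or 2 or forebrain IL-34 replicate 2 (0.23 to 0.30, adjusted p = 0.0501 to 0.105). The calls of Ctsc-201 and Ctsc-203 held without any 1 library.

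**Figure D4:**
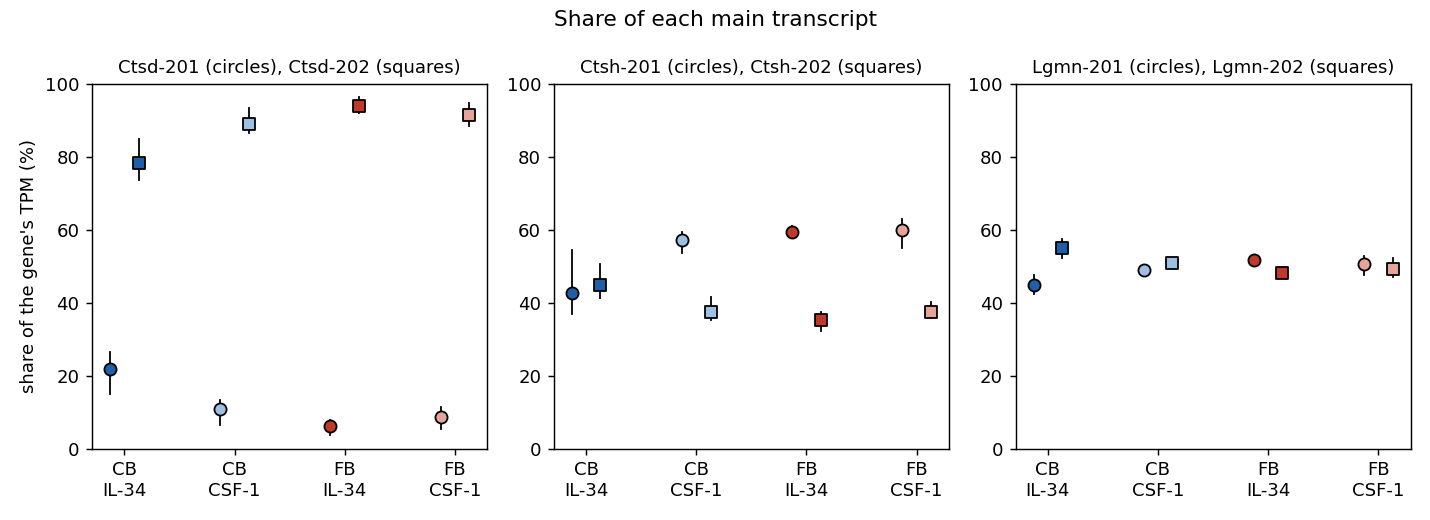
Share of each gene's TPM (%) held by the 2 main transcripts of Ctsd, Ctsh and Lgmn, in each group (CB, cerebellum; FB, forebrain); markers are the share of the group mean and bars the range over 3 libraries. The share of Ctsd-201 is 21.7% in cerebellum with IL-34 and 6.06 to 10.98% in the other groups.

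Related genes were read from lists by role. Of 13 other cathepsin genes, 3 were tested. Ctsf, a cysteine cathepsin, was at 15.1 ± 1.58 TPM in cerebellum with IL-34, against 24.9 ± 1.37 in forebrain with IL-34, and at 14.9 ± 0.06 in cerebellum with CSF-1, against 24.6 ± 3.11 in forebrain with CSF-1. It was lower in cerebellum with both ligands (-0.69, limma adjusted p = 0.00161, and -0.68, limma adjusted p = 0.00237). Ctse, at about 1 to 2 TPM, was higher in cerebellum with CSF-1 (0.79, limma adjusted p = 0.0325), and Ctso did not pass. None of the 3 passed between ligands.

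Of 23 genes of inhibitors, 21 were in the table and 4 were tested. Cst3, which encodes cystatin C, was at 1897 ± 98.8 TPM with IL-34 in cerebellum, against 1424 ± 179 with CSF-1 in cerebellum (0.42, limma adjusted p = 0.0382). Cst3 was also higher in cerebellum than in forebrain with IL-34 (0.47, limma adjusted p = 0.0210). With the length floor as a covariate neither call held, and Cst3 has no transcript of 1000 nt or more in the table. Cst7, which encodes cystatin F, an inhibitor of cathepsin C in immune cells, was at 9.43 ± 2.04 TPM in cerebellum with CSF-1, against 4.79 ± 1.78 in forebrain with CSF-1 (0.88, limma adjusted p = 0.0316). Serpinb6a was lower in cerebellum with IL-34 (-0.43, limma adjusted p = 0.00405). Cstb, a cytosolic inhibitor, was listed at 0 in 3 libraries of 3 groups and at 225 TPM or more in the others, so its levels are not compared.

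Among 12 genes listed for the handling of lysosomal enzymes, Gnptab makes the mannose 6-phosphate tag. Gnptab was higher in cerebellum with IL-34 (0.33, limma adjusted p = 0.0126) and with CSF-1 (0.39, limma adjusted p = 0.00781). M6pr, which encodes a mannose 6-phosphate receptor, did not pass in any comparison, nor did Nagpa, which uncovers the tag. Lrp1, an endocytic receptor, was lower with IL-34 in cerebellum (-0.60, limma adjusted p = 0.0449), as was Sumf1 (-0.18, limma adjusted p = 0.0414), and 0 of the 12 passed in forebrain, where 1.2% of all genes did. The difference between the regions was called for 0 of the 12. Of 11 genes of partners and other lysosomal proteins, Scpep1 encodes a carboxypeptidase related to Ctsa. Scpep1 was higher with IL-34 as the mean of both regions (0.21, limma adjusted p = 0.00394). Psap and Grn, at group means of 2834 to 3240 and 3339 to 3818 TPM, did not pass in any comparison. Ctbs was lower with IL-34 in cerebellum (-0.33, limma adjusted p = 0.0288). Tpp1 was called higher in cerebellum with IL-34 (0.50, limma adjusted p = 0.0181), but was at -0.15 when only transcripts of 1000 nt or more were summed.

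The TFE and MiT factors, which bind the E-box form marked in the Ctsd window, did not pass between ligands for any of the 4 genes, Mitf, Tfeb, Tfe3 and Tfec. Mitf was higher in cerebellum with IL-34 (0.40, limma adjusted p = 0.00596) and with CSF-1 (0.49, limma adjusted p = 0.00309), and Tfeb with IL-34 (0.36, limma adjusted p = 0.0356). Of 7 genes of MHC class II handling, Cd74, which encodes the invariant chain that Ctss trims, was at 54.7 ± 2.18 TPM with IL-34 in cerebellum, against 45.3 ± 0.91 with CSF-1 in cerebellum (0.27, limma adjusted p = 0.0277). In cerebellum, Cd74 (0.38 with IL-34 and 0.31 with CSF-1), H2-Ab1 (0.65 and 0.78) and H2-Aa (0.96 and 1.10, at 0 to 3.54 TPM) were higher than in forebrain, and so was H2-DMb1 with IL-34 (0.36). Ifi30, a thiol reductase of lysosomes, was lower (-0.32 and -0.51). Among the genes of these lists, the calls of Ctsf, Serpinb6a, Gnptab, Mitf and Ifi30 held without any 1 library, as did Scpep1 as the mean of both regions and Cd74 between regions with IL-34. Between regions with IL-34, however, Ctsf, Serpinb6a, Gnptab, Mitf, Ifi30 and Cd74 were each lost under 1 alternative (adjusted p = 0.0822 to 0.369). The calls of Ctsf, Gnptab, Mitf and Ifi30 with CSF-1, and of Scpep1 as the mean, held under every alternative. Each other call named here, of Ctse, Cst3, Cst7, Lrp1, Sumf1, Ctbs, Tpp1, Tfeb, H2-Aa, H2-Ab1, H2-DMb1 and Cd74, was lost without any 1 of between 3 and 11 libraries.

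The locations are those of GENCODE M21 on GRCm38, and all 10 genes are protein coding. Ctsk spans 95499256 to 95509362 and Ctss 95526786 to 95556403, both on the plus strand of chromosome 3, and Ctsc spans 88278085 to 88310888 on the plus strand of chromosome 7. Some members overlap other genes, and the library kit does not mark strand, so reads in the overlaps cannot be assigned with certainty. Ctsa overlaps Pltp (mean 143 TPM) and Neurl2 on the opposite strand, Ctsz overlaps Nelfcd (41.8 TPM), Ctsb overlaps Fdft1 (46.3 TPM) and Ctsd overlaps Gm49369 (104 TPM) on its own strand. Ctsc overlaps the opposite-strand Gm26522 (5.79 TPM). Ctsk overlaps no annotated gene. Each of these neighbours was far less abundant than the member it overlaps.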

How the data were processed

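The authors deposited TPM per Ensembl transcript, made with kallisto 0.43.0 and GRCm38 per the submitters' processing notes. Annotation release, filters and depth: not given in the sources used here. Precision therefore rests on the spread between libraries. Per the labels' protocols the SMART-Seq v4 kit was used. One protocol names human tissue, whereas all other labels are mouse.

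The 115879 transcripts were summed to 46262 genes, and 114255 (98.6%) were matched to GENCODE M21. None of the 66 pairs of libraries held identical values. limma 3.58.1 in R 4.3.3 was fitted on log2(TPM + 1) with 4 group means and a variance trend, over 12419 genes that reached 1 TPM in 3 or more of the 12 libraries. Tests were two-sided, p-values were Benjamini-Hochberg adjusted over all these genes and called under 0.05, in 6 contrasts. Transcripts were tested alike over 32755. The script was checked on simulated data, with changes larger than the called ligand differences of the members. No pairing of libraries by replicate number was seen, and none was used in the main fit.

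One oligodendrocyte marker, and the summed level of its list, is not reported here. The members and lists were chosen with earlier results of these data known. All 10 members are named, and of each other list those that passed, at most the 4 with the smallest p per contrast, and otherwise the 2 most abundant. Alternatives covered the pseudocount (0.1 and 5), the filter, scaling, the block, the libraries fitted, the variance trend, transcripts of 1000 nt or more, removal of length and GC trends (lowess span 0.3), the length floor and leaving out each library. The transcript alternatives were chosen after seeing the data.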

Additional observations from a re-analysis of the deposited data

How the results depend on the processing

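Direction and call held for Ctsk and Ctsc between regions, and for Ctss, Ctsl, Ctsh, Ctsz and Lgmn as the mean ligand difference, under every alternative run and without any 1 library. Other calls were less firm. Between ligands in forebrain 3 members were called, against 0 when only the groups compared were fitted, 5 with transcripts of 1000 nt or more and 7 with trends also removed (1 to 3 on leaving out 1 library, 1 without forebrain IL-34 replicate 2). In cerebellum 5 were called, against 2 with no filter, 8 with median-of-ratios scaling, 1 with quantile normalization, 1 with only the groups compared, 3 without the variance trend, 9 with trends removed and 1 with the length floor as a covariate (1 to 5 on leaving out 1 library, 1 without cerebellum IL-34 replicate 2 and 3 without cerebellum CSF-1 replicate 1, 2 or 3). For the mean of both regions 7 were called, against 5 to 10 over the alternatives (5 to 7 on leaving out 1 library), with Ctsa and Ctsk lost and Ctsb, Ctsd and Ctsc gained under some of them. The interaction had 0. Between regions, 2 were called with CSF-1, against 4 with transcripts of 1000 nt or more (2 on leaving out any 1 library), and 5 with IL-34, against 2 with no filter, 3 with only the groups compared and 2 with the length floor (3 to 5 on leaving out 1 library). The count of 3 came without cerebellum IL-34 replicate 2. Member transcripts called between ligands were 0 in forebrain, against 1 with median-of-ratios scaling and 1 with the length floor. In cerebellum they were 4, against 7 and 1 (0 to 8 on leaving out 1 library, 0 without cerebellum IL-34 replicate 2 and 8 without replicate 3). As the mean they were 6, against 3 with the replicate block (3 to 6 on leaving out 1 library). Between regions with IL-34 they were 7, against 1 with the length floor (3 to 12 on leaving out 1 library, 12 without cerebellum IL-34 replicate 3), and the interaction had 0 (0 to 2 on leaving out 1 library). Tpp1 between regions with IL-34 reversed, at -0.15 with transcripts of 1000 nt or more and -0.082 with trends also removed, against 0.50. Of all genes between ligands, 373 were called higher and 1220 lower in cerebellum, against 693 and 505 with median-of-ratios scaling and 451 and 724 with quantile normalization. For forebrain the split was 53 and 96, against 140 and 109, and 87 and 78. For the mean it was 339 and 1328, against 704 and 623, and 474 and 735. The number of all genes called between ligands was 1593 in cerebellum (37 to 2570 over the alternatives), 149 in forebrain (0 to 892) and 1667 as the mean (622 to 2725). Between regions it was 1675 with IL-34 (126 to 2240) and 833 with CSF-1 (456 to 1804). The fewest genes were called with the length floor for ligands in cerebellum, for the mean and for regions with IL-34. For ligands in forebrain and regions with CSF-1 the fewest were called with only the groups compared. In forebrain that fit called 0 of all genes. The mean and the interaction could not be fitted on only the groups compared. The cause was not tested.

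The same replicate number occurs in all groups. Over 18 same-numbered pairs r lay between -0.45 and 0.46, with 5 over 0.1. In 8 of 36 choices a library correlated best with its own number, so no pairing by number was seen. Whether equal numbers share a culture cannot be decided from 3 libraries per group. With the replicate block, the members called between ligands were 4 in cerebellum, 2 in forebrain and 6 for the mean, without Ctsb (adjusted p = 0.0799), Ctsh (adjusted p = 0.0812) and Ctsk (adjusted p = 0.0528) by limma. Between regions they were 6 with IL-34, Ctsa among them (adjusted p = 0.0434), and 2 with CSF-1.

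TPM carries no depth, and 3 libraries per group limit the precision.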
